A study of Mus musculus with 4 samples.

Results

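Intergenic start sites are the alternative start sites (ASSs) of mouse skeletal muscle that the authors assigned to no gene, marked in the deposited table by class code u and by the lack of a gene symbol. The code does not keep them away from genes, and some lie within a few bases of one or inside a gene of the RefSeq table used here. All rows with that code were taken, which gave 1781 of 42207 sites, or 4.22%. The sites came from whole transcriptome start site sequencing (WTSS-seq) of 4 libraries. The 2 KO libraries were made from muscle of mice in which AMPKα2 was inactivated, and the 2 WT libraries from wild-type mice. Prkaa2 encodes AMPKα2, one of the catalytic forms of AMP-activated protein kinase, which responds to a fall in cellular energy. Per the study's methods the KO mice were AMPKα2-/- C57BL/6 males of about 8 weeks, compared with their WT controls, and the muscle was the gastrocnemius. Per the labels all were adult.

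A start site outside annotated genes can belong to an unannotated noncoding RNA, to an upstream or antisense start of a neighbouring promoter, to a host transcript from which a microRNA is cut, or to a transcript that runs on past the annotated end of a gene. Many mammalian promoters are transcribed in both directions, and the RNA made on the opposite strand is usually short-lived. In WTSS-seq the 5′ end is tagged by template switching during reverse transcription of RNA depleted of ribosomal RNA. A read therefore marks where an RNA molecule, or a fragment of one, begins.

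The promoters below are shown because intergenic sites reached into their annotated windows, so that the letters of the site can be read directly. Each window covers 250 bases before and 50 bases after the annotated gene start in RefSeq (build GRCm38.p6), written 5′ to 3′ on the gene's own strand, and the capitals mark the bases covered by the intergenic site. Psmc5 (a proteasome ATPase subunit), Syncrip (an RNA-binding protein) and Tnnc2 (fast skeletal troponin C) held the same-strand upstream sites with most reads among those lying whole in a window. Ndufaf7 (an assembly factor of mitochondrial complex I) held the one with most reads among opposite-strand sites lying whole in a window and not also in the same-strand window of another gene.
Psmc5, plus strand, chr11:106255935-106256234: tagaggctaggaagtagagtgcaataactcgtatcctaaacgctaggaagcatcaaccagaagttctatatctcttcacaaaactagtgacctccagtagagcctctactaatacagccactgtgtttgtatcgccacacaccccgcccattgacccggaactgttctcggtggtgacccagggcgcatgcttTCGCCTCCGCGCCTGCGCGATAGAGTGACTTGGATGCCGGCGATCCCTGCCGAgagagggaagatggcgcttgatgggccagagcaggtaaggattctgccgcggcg
Syncrip, minus strand, chr9:88482348-88482647: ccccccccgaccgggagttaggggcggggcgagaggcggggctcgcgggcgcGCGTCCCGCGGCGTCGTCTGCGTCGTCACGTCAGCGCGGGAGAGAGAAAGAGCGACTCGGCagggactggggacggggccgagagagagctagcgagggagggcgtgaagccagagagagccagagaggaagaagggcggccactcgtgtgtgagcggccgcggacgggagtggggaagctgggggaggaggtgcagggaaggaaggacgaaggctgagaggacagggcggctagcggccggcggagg
Tnnc2, minus strand, chr2:164779685-164779984: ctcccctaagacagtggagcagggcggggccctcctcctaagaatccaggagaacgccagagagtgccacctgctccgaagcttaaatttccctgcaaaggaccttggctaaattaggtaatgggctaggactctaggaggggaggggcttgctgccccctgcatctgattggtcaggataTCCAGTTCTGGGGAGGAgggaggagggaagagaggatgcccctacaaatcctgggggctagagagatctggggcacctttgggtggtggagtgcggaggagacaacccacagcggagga
Ndufaf7, plus strand, chr17:78936885-78937184, with the site on the minus strand: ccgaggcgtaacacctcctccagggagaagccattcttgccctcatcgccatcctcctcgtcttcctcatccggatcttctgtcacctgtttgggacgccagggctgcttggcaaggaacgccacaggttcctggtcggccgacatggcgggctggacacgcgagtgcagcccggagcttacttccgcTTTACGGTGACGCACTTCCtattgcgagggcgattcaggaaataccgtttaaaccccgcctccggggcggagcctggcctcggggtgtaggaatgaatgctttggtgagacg

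MicroRNAs silence messenger RNAs through a seed at bases 2 to 8 of the mature strand, and they are cut from hairpins within much longer transcripts. The mature strands below are shown because the 4 groups of hairpins with most intergenic sites on their strand encode them (RefSeq, build GRCm38.p6), and the capitals mark the seed. Those of the let-7 family share the seed GAGGUAG, those of the miR-30 family GUAAACA and those of the miR-29 family AGCACCA, while miR-99a-5p has the seed ACCCGUA.
let-7c-5p (from both Mirlet7c-1 and Mirlet7c-2): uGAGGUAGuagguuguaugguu
let-7b-5p: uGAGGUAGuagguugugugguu
miR-30a-5p: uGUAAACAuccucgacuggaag
miR-30c-5p: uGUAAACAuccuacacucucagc
miR-29a-3p: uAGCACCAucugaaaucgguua
miR-29b-3p: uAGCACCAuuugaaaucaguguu
miR-99a-5p: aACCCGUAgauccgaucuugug

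The libraries held 1300069 to 2900279 reads, with KO the deeper of the groups. All 12 skeletal muscle markers had a site in the table, which holds sites of at least 10 reads over the 4 libraries, with summed normalized counts of 70113 to 98304. In the blood and immune cell list 5 of 7 markers had a site, Hbb-bs and Hba-a2 had none, and the summed level was 121 and 139 in KO against 1360 and 1034 in WT. Of that sum Ms4a4b, a lymphocyte membrane protein gene, held 73.3 and 62.0 in KO against 1177 and 942 in WT, and the other 4 markers held 47.6 and 76.9 in KO against 184 and 92.2 in WT. In the fibroblast list 7 of 8 markers had a site, with 2852 and 2521 in KO against 3768 and 3653 in WT. Adipocyte markers (6 of 7 with a site) and Schwann cell markers (2 of 5) overlapped between the groups. The part of these marker levels in the differences at intergenic sites was not tested, and in whole muscle fewer cells of a type and less RNA per cell cannot be told apart. Prkaa2 had normalized counts of 149 and 183 in KO and of 153 and 186 in WT. The difference did not pass the test (log2 change -0.03 with an SE of 0.50; adjusted p = 0.994 by DESeq2). Per the study the knockout removed part of the catalytic domain, and whether the sites of Prkaa2 lie in the removed part was not analysed here, so its reads gave no check of the labels.

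Of the 1781 intergenic sites, 1772 lay on the primary chromosomes, 7 on 6 unplaced scaffolds and 2 on the mitochondrial genome. There were 855 on the plus strand and 926 on the minus strand. Chromosome 1 held most (135 sites). On chromosome 16 the strands were uneven, with 68 sites on the plus strand and 10 on the minus strand. The median width was 8 bp (interquartile range 3 to 22 bp), against 13 bp for all 42207 sites. Intronic sites (class code i) and antisense exonic sites (class code x) had a median width of 7 bp, and sites just outside genes (class code p) one of 11 bp.

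Most intergenic sites carried few reads. The median was 17 reads over the 4 libraries, and 226 sites sat at the table's minimum of 10 reads. There were 183 sites with at least 100 reads and 26 with at least 1000 reads. Reads in all 4 libraries were found at 845 sites (47.4%), in KO alone at 290 and in WT alone at 44. Over all 42207 sites, 49.7% had reads in all 4 libraries. Reads in KO alone were found at 4994 of them and in WT alone at 967. At 229 sites (12.9%) a single library gave at least 90% of the reads, against 9.82% of all sites. The share was 13.1% for intronic sites, 11.2% for antisense exonic sites and 9.03% for sites just outside genes.

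The reads were concentrated in a handful of places. What RNA the 3 sites with most reads belong to was not analysed here, since no genome sequence was used, and every share of reads that includes them carries this limit. The intergenic sites held 366155 reads, of which 26.3% came from the site with most reads, 62.8% from the 3 sites with most, 71.4% from 10 and 86.7% from 100. The site with most reads was chr9:3258867-3259025 on the minus strand, 22544 bp from the pseudogene Olfr369-ps1. It had 29601 and 33245 reads in KO and 15797 and 17792 in WT, or a normalized count of 24058 ± 6551 in KO and 20994 ± 626 in WT (SD, n = 2). After normalization the groups overlapped, and the log2 fold change was 0.20 ± 0.54 (SE; adjusted p = 1.00 in DESeq2).

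The second was chr3:5860296-5860637 on the plus strand, 109058 bp from the pseudogene Gm8797, with 26273 and 16252 reads in KO and 11905 and 19064 in WT. The third was chr6:3201206-3201513 on the plus strand, 2786 bp past the end of the lncRNA LOC115490388, with 19859 and 13763 reads in KO and 15135 and 11104 in WT. Normalized counts overlapped between KO and WT at both. These were broad sites of 342 and 308 bp, among the 38 intergenic sites over 100 bp wide.

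The fourth, chr14:19278104-19278184 on the plus strand, had 3667 and 3197 reads in KO and 1979 and 2200 in WT. Its normalized counts were close, at 2583 ± 249 in KO and 2613 ± 102 in WT (SD, n = 2). The fifth, chr17:17523985-17524068 on the minus strand, lay 3690 bp past the end of Lnpep, which encodes an aminopeptidase found with the glucose transporter in its storage vesicles. It had 2408 and 749 reads in KO and 1384 and 117 in WT. Replicates differed more here than the groups did, and without WT replicate 1 the site passed the threshold at a log2 fold change of 3.04 (DESeq2 adjusted p = 0.0103) against 0.15 (adjusted p = 1.00) with all libraries. None of these 5 sites passed the test.

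As a share of all reads, the intergenic sites made up 4.34% and 4.51% of the KO libraries and 4.95% and 4.58% of the WT libraries. The means were 4.43% ± 0.118 in KO and 4.77% ± 0.261 in WT (SD, n = 2). The difference of -0.343 percentage points gave p = 0.333 in an exact two-sided permutation test, which is the smallest p that 2 against 2 libraries allow. The share of reads at the 3 largest sites was lower in both KO libraries (2.61% and 2.75%) than in both WT libraries (3.29% and 3.06%). Once the 10 largest sites were left out the order turned, with 1.35% and 1.36% in KO and 1.21% and 1.17% in WT, a difference of 0.167 percentage points (exact permutation p = 0.333).

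More intergenic sites were detected in KO than in WT. At least 1 read was found at 1599 and 1496 sites in KO and at 1236 and 1247 in WT. The difference was 306 sites, with the smallest exact permutation p possible (0.333). After each library had been thinned to 1300069 reads, the numbers were 1509 and 1389 in KO against 1236 and 1212 in WT. The groups did not overlap under either count. With at least 5 reads at equal depth the numbers were 733 and 626 in KO against 571 and 591 in WT. The table's minimum was set on the total over the 4 libraries, of which the KO libraries gave the larger part. A surplus on the KO side was not particular to intergenic sites. Over all 42207 sites 4994 had reads in KO alone and 967 in WT alone.

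**Figure D1:**
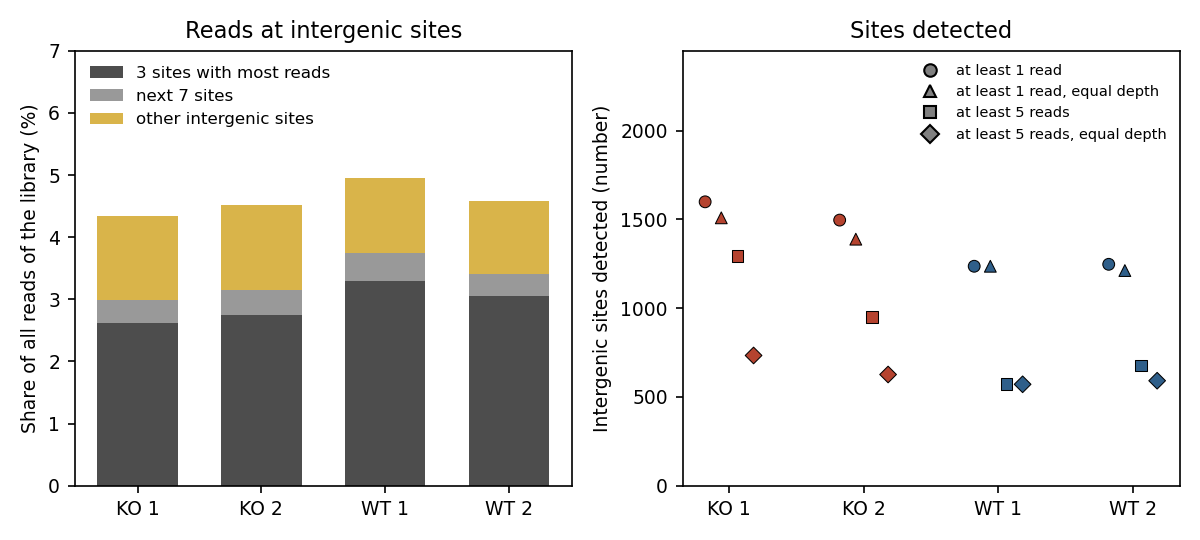
Left, the share of all reads of each library (percent) at the 3 intergenic sites with most reads, at the next 7 and at the other 1771; right, the number of intergenic sites detected in each library (red, KO; blue, WT) with at least 1 or at least 5 reads, with and without thinning to 1300069 reads. The 3 largest sites made up 60.1% to 66.7% of the intergenic reads of a library, and the KO libraries showed more sites than the WT libraries under each count.

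The position of the sites was read against the RefSeq gene table (GRCm38.p6). The largest class by number was the 510 sites more than 10000 bp from any gene (28.6%), which held 59.6% of the intergenic reads. Next were 442 sites (24.8%) within 10000 bp past the end of a gene on that gene's strand, at a median of 4010 bp. A further 436 sites were near a gene in another arrangement. Upstream of a gene within 1000 bp there were 112 sites on the same strand, at a median of 80.5 bp, and 77 divergent sites on the opposite strand, at a median of 426 bp. A site that met both definitions, for neighbouring genes, was counted as divergent. RefSeq genes now cover the remainder of the placed sites, with 129 inside a gene on its strand, 32 on the opposite strand and 34 inside a gene of unknown strand. The other 9 sites were on scaffolds or the mitochondrial genome.

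The strand of the nearest gene was known for 1577 sites outside genes. On the 3′ side of that gene 597 sites had its strand and 262 the opposite strand. On the 5′ side 404 had its strand and 314 the opposite one. Very few same-strand sites lay within 2000 bp past a gene end (12), while 191 lay between 2000 and 4000 bp. This step falls where class code p, which takes sites up to that distance downstream, gives way to class code u. Within 10000 bp the counts were 375 same-strand and 121 opposite-strand sites on the 3′ side, and 249 and 176 on the 5′ side.

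The genes beside these sites were mostly ones with a site of their own in the table, counted here as having reads. Among protein-coding neighbours within 10000 bp, 84.3% had reads in these libraries where the site lay past the gene end on the same strand, against 60.6% where it lay there on the opposite strand. On the 5′ side the shares were 72.5% for the same strand and 75.5% for the opposite strand. Over all protein-coding genes, of known or unknown strand, the share was 36.4%. The neighbours were limited to genes of known strand, and some strands were taken from annotated sites of these data. Genes with such a strand had reads by construction, so the 36.4% is not a like-for-like comparison. Neighbouring sites share a gene, so these shares are given as a description.

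**Figure D2:**
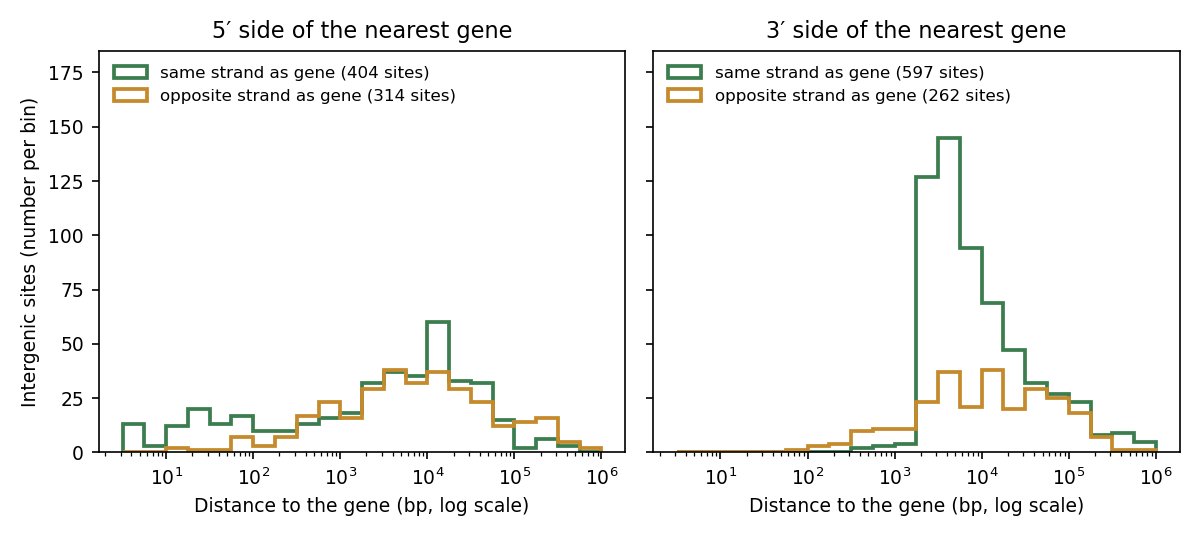
Number of intergenic sites (vertical axis, sites per bin) by distance to the nearest gene of known strand (horizontal axis, bp on a log scale), on its 5′ side (left) and its 3′ side (right), for sites on the gene's strand (green) and on the opposite strand (orange). Same-strand sites on the 3′ side rise steeply beyond 2000 bp and outnumber the opposite strand by 597 to 262, and same-strand sites on the 5′ side extend down to a few bases from the gene start.

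Promoter windows held 104 of the intergenic sites (5.84%). On the gene's strand there were 89 sites, 78 of them before the annotated start, at a median of 24 bp before it. On the opposite strand there were 28, and 13 sites counted in both ways because windows of neighbouring genes overlapped. The GC box GGGCGG, searched on both strands, was found in 64.0% of the 86 windows with a same-strand site. It was found in 63.0% of the 27 windows with an opposite-strand site, against 35.7% of all 32851 windows. The CCAAT box CCAAT was found in 38.4% and 33.3%, against 37.4% of all windows. The TATA box TATAAA was found in 17.4% and 7.41% (2 of 27 windows), against 13.6%. All windows include those of genes without a site in these data, so these are not like-for-like comparisons. A match is a stretch of letters and does not show that a factor binds there.

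The Psmc5 site lay 36 bp before the annotated start and also 65 bp upstream of Ftsj3, which is transcribed the other way. It had 81 and 124 reads in KO and 34 and 61 in WT. The Syncrip site lay 171 bp before the start, with 59 and 137 reads in KO and 33 and 46 in WT. The Tnnc2 site lay 64 bp before the start. Its reads were 65 and 113 in KO and 25 and 68 in WT, beside 1368 to 4656 reads at the 5 sites assigned to the gene. Normalized counts of KO and WT overlapped at all 3 sites. The Ndufaf7 site, 50 bp before the start on the other strand, had 37 and 44 reads in KO and 2 and 10 in WT, a log2 change of 2.11 with an SE of 1.24 (adjusted p = 0.683 by DESeq2). Its normalized counts did not overlap, yet the site did not pass the test. Of the 104 sites in windows, 21 were tested and 0 passed.

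Among divergent sites the 5 with most reads were named. The first lay 868 bp upstream of Pink1, a kinase that marks damaged mitochondria, with 146 and 109 reads in KO and 47 and 51 in WT (chr4:138327161-138327167). Its normalized count was 94.9 ± 1.23 in KO and 61.3 ± 3.44 in WT (SD, n = 2), and it did not pass the test (a log2 fold change of 0.63 ± 0.72, SE; adjusted p = 1.00 in DESeq2). The second was the Psmc5 and Ftsj3 site above. The others lay upstream of Gm4984 (954 bp), of the lncRNA Foxo6os (529 bp) and of C2cd3 (309 bp), with totals of 118 to 177 reads. The C2cd3 site also lay 24 bp upstream of Ppme1 on that gene's strand. None of the 5 passed. Of the 77 divergent sites 13 were tested and 0 passed.

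Between KO and WT, 17 intergenic sites were up-regulated in KO and 9 down-regulated (DESeq2 Wald test, adjusted p under 0.1). They were called among 420 tested sites, since the filter on low counts left the other 1361 without an adjusted p. Sites were up-regulated at 4.05% and down-regulated at 2.14% of those tested, against 2.33% and 0.882% of all 11112 tested sites. The shares were 3.28% and 1.07% for intronic sites and 3.04% and 0% for antisense exonic sites. For sites just outside genes they were 0.676% and 0.676%. With edgeR's quasi-likelihood test 5 were up-regulated and 3 down-regulated of 425 tested, all 8 among the DESeq2 calls, against 0.712% of all sites in either direction. The tested sites had a median log2 fold change of 0.21, against 0.10 over all tested sites. It was 0.42 for intronic sites, 0.32 for antisense exonic sites and 0.23 for sites just outside genes. Of the 420 tested intergenic sites 251 were higher in KO, as were 5949 of all 11112. Between replicates the median absolute log2 ratio was 0.72 in KO and 0.83 in WT.

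The calls rested on few libraries. Without KO replicate 2 there were 2 up-regulated and 3 down-regulated sites, without KO replicate 1 there were 4 and 2, without WT replicate 2 there were 5 and 3, and without WT replicate 1 there were 14 and 2. Of the 16 called sites named below, 5 of the 13 with an adjusted p were called without KO replicate 1, 1 of 16 without KO replicate 2, 9 of 13 without WT replicate 1 and 8 of 15 without WT replicate 2, and edgeR called 8 of 16. Normalized counts of KO and WT did not overlap at 16 of the 17 up-regulated and at 8 of the 9 down-regulated sites, beside 45.2% of the 420 tested. At 10 up-regulated sites both WT libraries had at most 3 reads, and at 6 down-regulated sites both KO libraries did. At such sites a fold is given below as a lower bound, computed against a floor of 3 reads per library. The called sites were 3 to 76 bp wide and spread over 16 chromosomes or scaffolds.

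**Figure D3:**
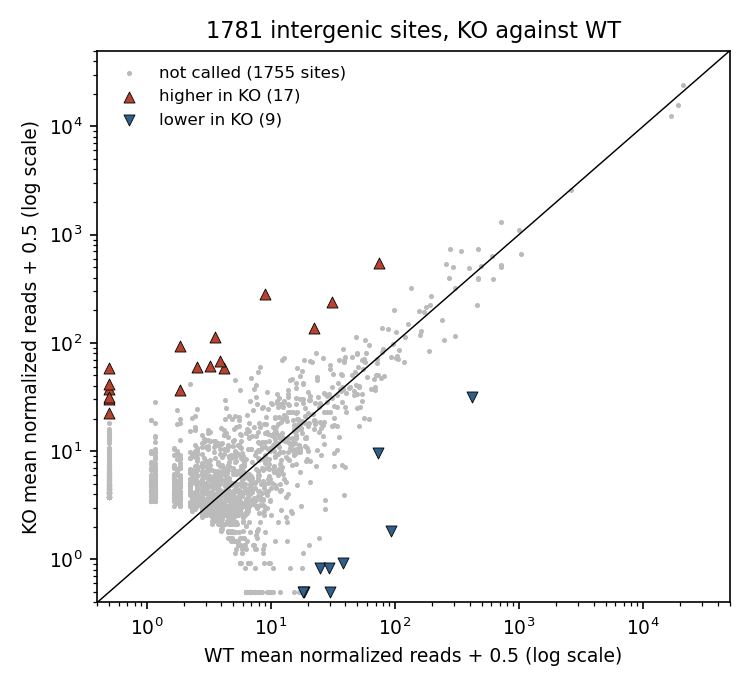
Mean normalized reads + 0.5 of the 1781 intergenic sites in WT (horizontal axis, log scale) against KO (vertical axis, log scale), with the line of equality; red triangles are the 17 up-regulated and blue triangles the 9 down-regulated sites, and grey points the 1755 others. The sites with most reads lie along the line and the called sites lie at low and middle levels, several of them at 0 reads in one group.

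Of the up-regulated sites, 2 lay close upstream of a gene on its strand. The site chr11:52126089-52126092 lay 655 bp upstream of the microRNA gene Mir3061. It had 59 and 610 reads in KO and 10 and 3 in WT, for a log2 fold change of 5.07 ± 1.05 (SE; adjusted p = 0.000334 in DESeq2). The rule for naming required both KO libraries to be above both WT libraries. Without KO replicate 2 the log2 fold change was 2.18. The site chr18:35561243-35561246 lay 912 bp upstream of Matr3, a nuclear matrix protein that binds RNA. It had 140 and 111 reads in KO and 2 and 0 in WT, at least 24.9-fold higher in KO (adjusted p = 0.000633 in DESeq2). The KO libraries were close to each other here. Normalized counts summed over the sites assigned to Matr3 were 109 and 103 in KO against 156 and 158 in WT, and did not pass the test.

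Past the ends of muscle genes, 2 sites were up-regulated. The site chr7:19424821-19424824 lay 3240 bp past the end of Ckm, the muscle creatine kinase, on its strand, and 279 bp from Mark4, whose strand was not known. It had 84 and 197 reads in KO and 2 and 3 in WT, at least 29.9-fold higher in KO (adjusted p = 0.000361 in DESeq2). The site chr14:20645715-20645728 lay 3379 bp past the end of Myoz1, a Z-disc protein of fast fibres, and 1232 bp upstream of Usp54. It had 88 and 89 reads in KO and 5 and 0 in WT (a log2 fold change of 4.36 ± 1.20, SE; adjusted p = 0.0203 in DESeq2). Counts summed over the sites assigned to Ckm and Myoz1 did not pass the test. Their normalized levels were 1307 and 1750 in KO against 1355 and 2001 in WT for Ckm, and 168 and 174 against 178 and 191 for Myoz1. The nearer genes, Mark4 and Usp54, had 1 site each and no adjusted p. Mark4 had 8 and 16 reads in KO and 1 and 1 in WT. Usp54 had 0 and 8 reads in KO and 3 and 0 in WT.

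The other up-regulated sites named by the rule lay from 243 bp to 147192 bp from their nearest gene, apart from 1 on an unplaced scaffold. The site chr16:86088640-86088645 lay 147192 bp from its nearest gene, the lncRNA Gm32357. It had 469 and 193 reads in KO and 25 and 24 in WT, for a log2 fold change of 2.95 ± 0.71 (SE; adjusted p = 0.00409 in DESeq2). The site chr12:37586005-37586007, 4074 bp past the end of Agmo, an ether lipid cleaving enzyme, had 161 and 12 reads in KO and 0 in both WT libraries. Its KO libraries differed widely from each other. The KO level was at least 15.4-fold higher (adjusted p = 0.00357 in DESeq2).

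The site chr2:181288348-181288351, 243 bp from Gmeb2, had 89 and 69 reads in KO and 3 and 0 in WT. The remaining 3 sites were at 0 in both WT libraries, with 77 and 27 reads in KO at chr8:97794435-97794440, 50 and 31 at chr12:73433604-73433617, and 39 and 43 at a site on an unplaced scaffold. They were at least 7.90-fold to 9.80-fold higher in KO, and the Gmeb2 site at least 15.7-fold. DESeq2 adjusted p at these 4 sites ran from 0.0111 to 0.0222.

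Among the down-regulated sites, the one past the end of Ddi2, a protease that cleaves ubiquitinated substrates, had most reads (chr4:141680562-141680574, 2998 bp past the end, on its strand). It had 79 and 12 reads in KO and 431 and 221 in WT. Its log2 fold change was -3.75 ± 0.79 (SE; adjusted p = 0.000523 in DESeq2). Both KO libraries were below both WT libraries, which the rule for naming required. The 7 sites assigned to Ddi2, summed, moved the same way, with normalized counts of 88.6 and 35.0 in KO and of 365 and 237 in WT (a log2 fold change of -2.27 ± 0.58, SE; adjusted p = 0.00886 in DESeq2). The call of the gene was lost with edgeR, without KO replicate 2 and without WT replicate 1. The site had more reads than the gene's own sites in WT replicate 1, where these had 260 reads, and in WT replicate 2, where they had 190.

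The site with the smallest adjusted p of all, chr17:50421423-50421464, lay 2692 bp upstream of the lncRNA Gm31015 on its strand. It had 4 and 0 reads in KO and 37 and 117 in WT (a log2 fold change of -6.04 ± 1.21, SE; adjusted p = 0.000169 in DESeq2). The site chr8:115698715-115698741, 4522 bp past the end of the transcription factor gene Maf, had 0 and 1 reads in KO and 36 and 23 in WT. The KO level was at least 16.5-fold lower (adjusted p = 0.0203 in DESeq2). KO and WT did not overlap at either site, which the rule for naming required.

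A site 15 bp from the small nucleolar RNA gene Snord13 (chr8:31149971-31149978) had 1 and 0 reads in KO and 17 and 22 in WT, at least 10.6-fold lower (adjusted p = 0.0804 in DESeq2). A site on chromosome 16, chr16:11045911-11045917, had 1 and 0 reads in KO and 30 and 15 in WT, at least 12.7-fold lower (adjusted p = 0.0519 in DESeq2). Another 3586 bp from Mast4, on the opposite strand, had 17 and 8 reads in KO and 85 and 26 in WT, or normalized counts of 9.03 ± 3.01 and 72.7 ± 60.3 (SD, n = 2, DESeq2 adjusted p = 0.0899). The last 3 had the largest adjusted p of the 16 sites named.

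**Figure D4:**
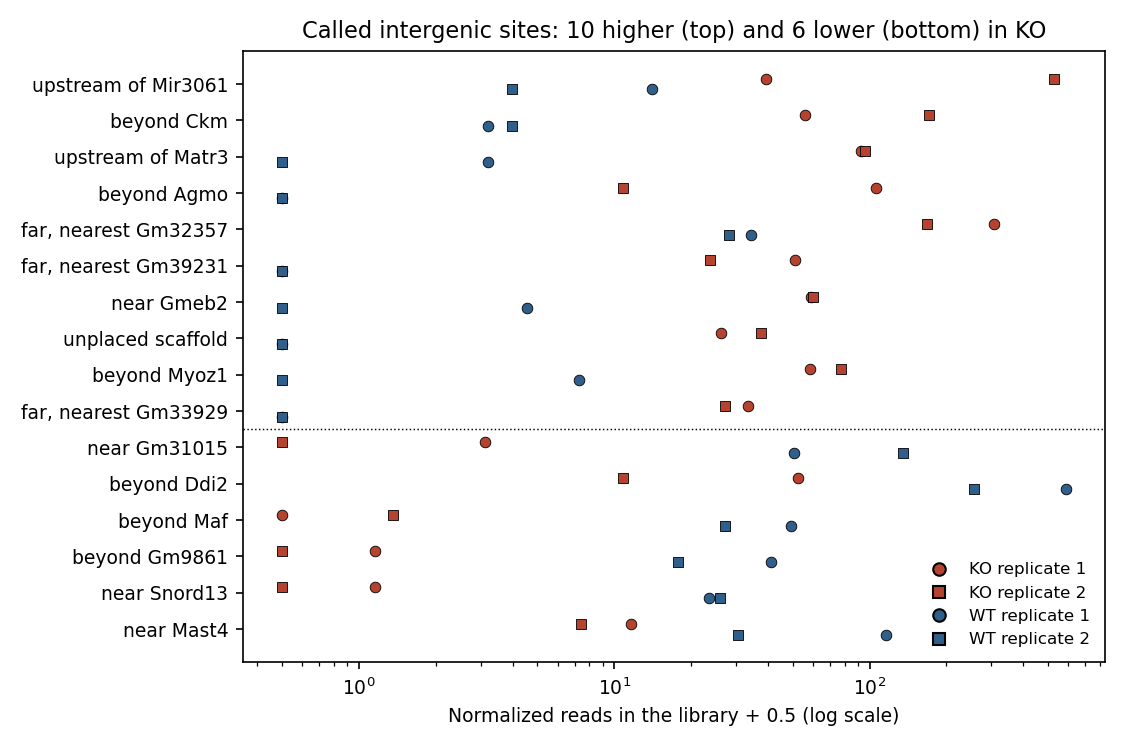
Normalized reads + 0.5 in each library (horizontal axis, log scale) at the 16 called sites named by the rule, 10 up-regulated above the dotted line and 6 down-regulated below it; red, KO; blue, WT; circles, replicate 1; squares, replicate 2. Red and blue points do not overlap at any of the 16 sites, which the rule required. Replicates of 1 group lie far apart at the Mir3061 and Agmo sites.

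Another 10 called sites fell outside the rule, for a library of the higher group under 10 reads, overlapping groups or a place lower in the order. At one of them, chr8:34826919-34826934, 2251 bp past the end of Tnks, 1 library gave nearly all reads, with 1565 and 80 in KO and 65 and 51 in WT. Its normalized counts overlapped, at 1027 and 69.0 in KO and 88.2 and 58.9 in WT. Its log2 fold change was 2.90 (DESeq2 adjusted p = 0.0641), and without KO replicate 1 it was -0.059. At another, chr6:31088047-31088057, all 51 reads came from WT replicate 2. These were chosen after their values were seen.

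By position, the called sites came from several classes. Past a gene end on its strand 4 were up-regulated and 5 down-regulated of 109 tested, and more than 10000 bp from genes 6 were up-regulated and 1 was down-regulated of 112 tested. Of 38 tested sites inside RefSeq genes on the gene's strand 2 were up-regulated, as were 2 of 31 upstream on the same strand. Near genes in other arrangements there were 2 up-regulated and 3 down-regulated of 96. Nearest to the 26 called sites lay 25 genes, of which 14 had reads and 8 were tested. Ddi2 was the one called, against 2.67% of all 4688 genes tested.

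Some sites stood in rows. Sites on 1 strand within 1000 bp of each other formed 1579 loci, of which 1446 held a single site and 33 held at least 3. The locus with most sites lay 2673 to 5389 bp past the end of F830016B08Rik, an interferon-inducible GTPase-like gene, with 12 sites over chr18:60306496-60309401. Its normalized counts, summed, were 263 and 144 in KO against 168 and 213 in WT. The next was a row of 10 sites past the lncRNA Gm35317 (chr2:77311209-77313977), with 65.0 and 66.5 in KO against 80.1 and 86.6 in WT. The third was the Lnpep locus with 8 sites, of which the fifth most abundant site held 96.1% of the reads. None of the 3 loci passed the test (DESeq2 adjusted p = 1.00). Over all loci 17 were up-regulated and 9 down-regulated of 443 tested.

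One locus of 7 sites lay inside Eef1a2, which encodes the elongation factor form of mature muscle and neurons. Its sum was 932 and 661 normalized counts in KO and 389 and 258 in WT. Both KO libraries were above both WT libraries, at a log2 fold change of 1.30 (SE 0.58) that did not pass the test (DESeq2 adjusted p = 0.374). The sites assigned to Eef1a2 had 412 and 445 normalized counts in KO and 554 and 770 in WT, in the other order, and did not pass either (log2 fold change -0.63, SE 0.43, adjusted p = 0.762). The locus and the assigned sites share a gene and a strand.

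Longer rows of sites on 1 strand lay along some microRNA hairpins, a pattern noticed in these data and described without a test. Of 1005 hairpins in the RefSeq table, joined into 774 groups where neighbours on 1 strand lay within 100000 bp, 56 groups had an intergenic site on their strand within 50000 bp and 37 had one on the opposite strand. There were 114 such sites on the hairpins' strand and 39 on the opposite strand. In the 4 groups with most, whose mature strands are printed above, 46 sites were on the hairpins' strand and 1 on the other. These 4 were picked by their number of sites on the hairpins' strand, which favours that strand. In the other groups the numbers were 68 and 38. Beside the nearest gene of any kind, same-strand sites also outnumbered opposite-strand ones. The counts were 597 and 262 on the 3′ side and 404 and 314 on the 5′ side.

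Around Mir99a and Mirlet7c-1 (chr16:77598936-77599750) 16 intergenic sites ran along the plus strand, 4 before the hairpins and 12 after, with 1 on the minus strand. They summed to 224 and 129 normalized counts in KO and 81.4 and 135 in WT. Around Mir30a and Mir30c-2 (chr1:23272269-23291784, plus strand) there were 16 sites, 7 of them between the hairpins and 0 on the other strand. These summed to 129 and 55.2 in KO and to 43.4 and 60.1 in WT. KO replicate 1 was the highest library in both groups of hairpins, and KO and WT overlapped.

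Around Mir29a and Mir29b-1 (chr6:31062660-31063093, minus strand) there were 9 sites, 8 of them before the hairpins and some of these past the end of the lncRNA Lncpint. They summed to 54.5 and 99.2 in KO and to 88.2 and 124 in WT, with WT replicate 2 raised by the site of 51 reads named above. The 5 sites before Mirlet7c-2 and Mirlet7b (chr15:85706603-85707403, plus strand) summed to 19.0 and 17.3 in KO and to 52.9 and 41.6 in WT. Both KO libraries were below both WT libraries there, while 1 of the 5 sites was tested and 0 passed. The WTSS-seq reads mark where RNA molecules, or fragments of them, begin and do not measure the mature microRNAs.

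**Figure D5:**
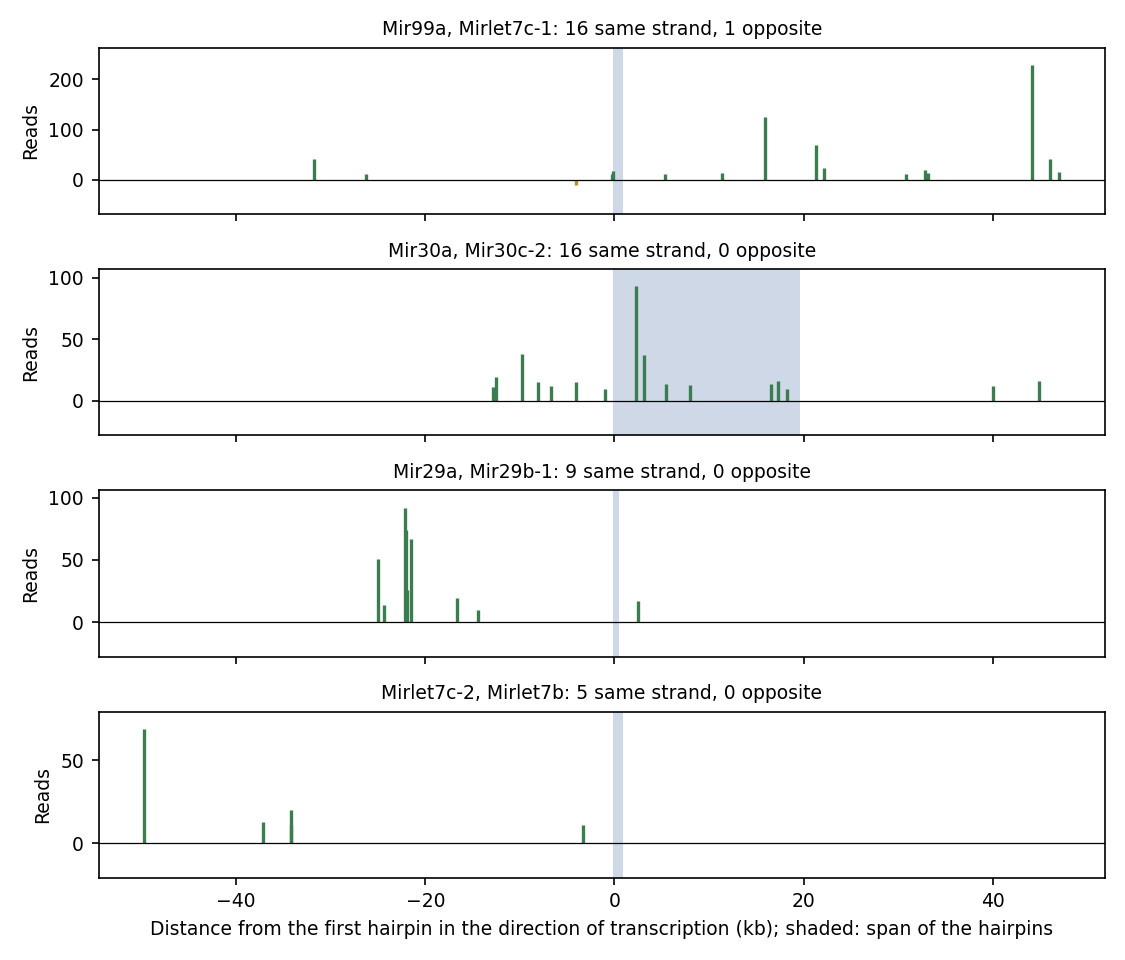
Reads over the 4 libraries (vertical axis) at intergenic sites by distance from the first hairpin in the direction of transcription (horizontal axis, kb) for the 4 hairpin groups with most sites; green bars above 0, sites on the hairpins' strand; orange bars below 0, sites on the opposite strand; shaded, the span of the hairpins. Sites on the hairpins' strand outnumber those on the other by 46 to 1, lie on both sides and between the hairpins of Mir30a and Mir30c-2, and lie mostly before those of Mir29a and Mir29b-1.

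When sites on 1 strand were joined over gaps of up to 20000 bp, 31 rows held at least 5 sites and 232 sites in all, or 13.1% of those on the primary chromosomes. Within the span of these rows 0 intergenic sites lay on the opposite strand. Outside the hairpins, the longest was a row of 14 sites over 55.4 kb on the minus strand of chromosome 13 (chr13:83356975-83412401), beside the lncRNAs Gm33217 and Gm33274. It summed to 390 and 397 normalized counts in KO and to 209 and 176 in WT. The groups did not overlap, and of its 6 tested sites 0 passed. A row of 13 sites on the minus strand of the X chromosome, near Gm8424 and Gnl3l, summed to 182 and 203 in KO and to 93.6 and 132 in WT, again with 0 passing of 5 tested.

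The mitochondrial sites both lay on the minus strand, past TrnP, the last gene of that genome, in its noncoding control region. The broader one covered positions 15800 to 16205, the widest of all intergenic sites at 406 bp. It had 716 and 1006 reads in KO and 638 and 1064 in WT, for a log2 fold change of -0.65 ± 0.59 (SE; adjusted p = 1.00 in DESeq2). The other, at 15623 to 15754, had 68 and 58 reads in KO and 48 and 77 in WT. Normalized counts overlapped at the broader site, and at the other they were 44.6 and 50.1 in KO and 65.1 and 88.9 in WT without passing the test.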

How the data were processed

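Skeletal muscle RNA of 2 KO and 2 WT mice was profiled by WTSS-seq. Groups and replicate numbers came from the labels, and nothing in them tied replicates of KO and WT to a litter or day. The authors deposited raw read counts, 1 row per clustered start site, with a Cuffcompare class code. The study's methods give TMAP mapping and clustering within a window of bases for the study's 3′ end libraries, and do not state whether the 5′ end settings were the same. The submitters' processing notes named the build GRCm38.p5. Genes, promoters and microRNAs came from RefSeq tables of GRCm38.p6, whose primary chromosomes have the same coordinates. The gene table held no strand, which was taken from the promoter and microRNA tables and from annotated sites, and was known for 29895 of 49980 genes.

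Counts of all 42207 sites were compared by DESeq2 version 1.42.0 under R 4.3.3 (Wald test), as in the study's methods, with median-of-ratios size factors, independent filtering (mean normalized count above 8.76) and a Benjamini-Hochberg adjusted p under 0.1. In edgeR, version 4.0.16, the quasi-likelihood test was the alternative. Genes were tested on counts summed over sites of a symbol, and loci on sums of intergenic sites within 1000 bp. Adjusted p-values covered all features of the table. Scripts were tested on simulated data. Libraries were thinned to 1300069 reads in 5 random draws, so numbers of sites at equal depth are means. With no molecular identifiers, PCR copies counted as separate reads, and the floor of 3 reads (1.03 to 2.31 ppm of a library) covers counting error only. The DESeq2 and edgeR p-values rest on the spread between 2 libraries per group, with the estimate of spread shared in part across sites. They do not measure the spread at a single site alone.

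Sites were named by a rule: the 5 with the highest mean normalized count, up to 10 called sites per direction by adjusted p with non-overlapping groups and no library of the higher group under 10 reads, the 5 divergent sites with most reads, and the 3 loci with most sites. Nearest and overlapping genes were added. The members, lists and rule were chosen with earlier results of these data known. Deviations of same-numbered libraries had a correlation of 0.03 over 23990 sites. Sites with as few as 5 reads in 2 libraries were included, where counting error lowers a correlation, so a pairing is not excluded. Alternatives covered the test, normalization, filters, left-out libraries, a replicate block, thinning, position limits and summed loci. No genome sequence was used here.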

Additional observations from a re-analysis of the deposited data

How the results depend on the processing

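These results rest on 2 libraries a group and a median of 17 reads per site. The 17 up-regulated and 9 down-regulated sites became 5 and 3 with edgeR. The down-regulated sites were 3 with independent filtering off and 5 with at least 5 reads in at least 2 libraries, where 12 were up-regulated in each case. Leaving out 1 library gave 2 to 14 up-regulated and 2 to 3 down-regulated sites. TMM factors, size factors without mitochondrial and ribosomal RNA, primary chromosomes alone and summed loci kept the counts within 1.5 times. All 16 named called sites kept their direction wherever an adjusted p was given. The rule for naming required non-overlapping groups, which largely fixed this in advance, so it is no support. With edgeR 8 of the 16 were called. Without KO replicate 1 the Tnks site turned to -0.059 (3.79 without KO replicate 2).

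With a replicate block, DESeq2 gave 13 up-regulated and 5 down-regulated sites, 17 of them among the 26. With a replicate block edgeR called 0 and 0, with 37 and 20 at an unadjusted p under 0.05. The labels did not tie replicate numbers to a litter or day, and a count of calls says nothing on effect size. The 1 called neighbour gene, Ddi2, became 0 with edgeR and 0 without KO replicate 2 or WT replicate 1.

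The share of reads at intergenic sites, KO minus WT, was -0.343 percentage points, -0.818 outside mitochondrial sites and ribosomal RNA genes, and 0.167 without the 10 most abundant sites. The surplus of 306 sites in KO was 224.8 at equal depth, 496 with at least 5 reads, and 98.7 with both, the last chosen after seeing the data. Divergent sites numbered 77, and 45 with a limit of 500 bp. Sites past a gene end numbered 442, and 287 with a limit of 5000 bp. The cause of these moves was not tested.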
